A study of Mus musculus with 3 samples.

Results

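The data were 8 genes of fatty acid and cholesterol synthesis in single-cell RNA libraries of mouse liver after an overdose of acetaminophen (APAP). The genes were Scd1, Fasn, Acaca, Acly, Elovl6, Srebf1, Sqle and Insig1, taken by symbol from the gene lists of the count matrices. All 8 were found, of 34099 genes in each library. Every mouse received 500 mg/kg APAP and, after 6 h, an infusion: engineered MSCs (mesenchymal stromal cells that carry bispecific polyvalent peptides), native MSCs, or PBS as the control. Livers were collected at 4 days, dissociated whole, freed of red blood cells by lysis and run on 10x 3′ chemistry. Strain, sex and age are not given in the sources used here. Each group is 1 mouse and 1 library, so no spread between animals exists, no test between groups was possible, and infusion, animal and library cannot be told apart.

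Fatty acid synthesis turns cytosolic citrate into acetyl-CoA (Acly), carboxylates it to malonyl-CoA (Acaca), builds palmitate (Fasn), lengthens it (Elovl6) and introduces a double bond (Scd1). Squalene epoxidase (Sqle) catalyses an early oxygen-dependent step of the sterol branch of cholesterol synthesis. Both routes are driven by SREBP transcription factors, of which Srebf1 encodes the form most tied to fatty acids, and Insig1 encodes a membrane protein that holds SREBP precursors in the endoplasmic reticulum when sterols are plentiful. The hepatocyte is the liver cell best known for these routes.

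Promoter sequences were read from RefSeq for the members that the table holds (assembly GRCm38.p6, from 250 bases before to 50 bases after the transcription start). There were 6 such members, and Scd1 and Sqle had no entry. The 2 sequences shown are Fasn, with the most copies of the NF-Y box, and Insig1, the only member with an E-box. Insig1 was picked also as the only member beyond 1.5-fold between the MSC libraries in Alb-rich hepatocytes. Acly and Srebf1 had the NF-Y box too and are not shown. Capitals mark the NF-Y box, CCAAT or its reverse complement, and the E-box, CACGTG. Fasn lies on the minus strand at chr11:120824498-120824797 and Insig1 on the plus strand at chr5:28071162-28071461.
Fasn: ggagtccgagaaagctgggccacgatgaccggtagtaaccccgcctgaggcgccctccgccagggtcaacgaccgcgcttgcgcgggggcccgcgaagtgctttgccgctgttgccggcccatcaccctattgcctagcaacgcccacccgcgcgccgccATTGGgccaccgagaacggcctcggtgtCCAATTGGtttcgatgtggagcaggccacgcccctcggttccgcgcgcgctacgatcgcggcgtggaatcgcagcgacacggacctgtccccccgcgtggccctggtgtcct
Insig1: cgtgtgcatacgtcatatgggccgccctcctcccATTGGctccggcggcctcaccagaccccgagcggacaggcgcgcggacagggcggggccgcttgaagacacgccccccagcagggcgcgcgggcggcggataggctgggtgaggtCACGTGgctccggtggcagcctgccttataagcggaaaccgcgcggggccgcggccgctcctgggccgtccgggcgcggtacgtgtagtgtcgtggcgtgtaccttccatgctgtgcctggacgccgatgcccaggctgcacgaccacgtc

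Searched on both strands, CCAAT was present in a promoter of 4 of the 6 members (Fasn, Acly, Srebf1 and Insig1), against 37.4% of 32851 promoters of the same length. The percentages here are of single promoters, whereas a member counts when any of its promoters has a match. Fasn had 3 matches, of which the last 2 overlap on opposite strands, and of the 3 promoters listed for Srebf1 2 had a match. The E-box CACGTG was present in 1 of 6 (Insig1), against 7.15% of promoters. The letters TCACNCCAC, a form of the sterol regulatory element, were in 0 of 6, against 1.24% of promoters. A missing match says only that these letters are not in this window.

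The libraries held 62564254 UMIs in 11028 barcodes (engineered MSC), 84950721 in 11479 (native MSC) and 82247448 in 10739 (PBS). Any pair of libraries shared 39 to 46 barcode sequences. After filters 9129, 9179 and 9537 barcodes remained, of which pairs shared 25 to 35. Joint clustering without the members and their pathway genes gave 39 clusters. Of these, 3 were named hepatocyte-like from markers, and they held 2245 engineered MSC barcodes (24.6% of those kept), 835 native MSC barcodes (9.10%) and 352 PBS barcodes (3.69%).

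The hepatocyte-like barcodes of the engineered MSC library stood apart. Cluster 6 held 1501 engineered MSC barcodes against 1 of native MSC and 0 of PBS, and cluster 16 held 599 against 17 and 6. Only cluster 8 had at least 50 barcodes in each library (145, 817 and 346), and it is used below as the shared cluster. Hepatocyte-like barcodes with Alb, the albumin transcript, at 1% or more of their UMIs are called Alb-rich, and numbered 1032 (engineered MSC), 79 (native MSC) and 20 (PBS). Their median depth was 911, 6663 and 3043 UMIs and their median mitochondrial share 1.09%, 0.0949% and 0.133%, in the same order. All 10 hepatocyte markers were detected in Alb-rich barcodes of each library, at a summed 63609, 105005 and 72739 UMIs per 1000000 (CPM). Other lists were not absent. The 9 macrophage markers, all detected in each library, summed to 708, 332 and 2200 CPM, the Kupffer markers (7, 6 and 7 of 7 detected) to 404, 48.6 and 1110 CPM, the neutrophil markers (8, 8 and 4 of 8) to 97.3, 1063 and 78.3 CPM, and the erythroid markers (6, 5 and 2 of 7) to 804, 3291 and 13.1 CPM. The part of these other transcripts, and of the differences in depth and mitochondrial share, in the hepatocyte results below was not tested. Nor was it tested whether barcodes of so low a mitochondrial share, which lead the native MSC and PBS groups, are intact cells.

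Levels are UMIs summed over a class and divided by its total, with an exact 95% Poisson interval. Ratios between libraries have an exact 95% binomial interval. Both cover counting error only. A gene with at least 20 UMIs in a pair of libraries is said to lie beyond 1.5-fold when the whole interval of its ratio does. Because UMIs come from transcript ends, levels are compared between libraries and classes, not between genes.

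In Alb-rich barcodes, Scd1, the desaturase that makes monounsaturated fatty acids, stood at 2489 CPM in the engineered MSC library (interval 2414 to 2566, 4168 UMIs). It stood at 1617 CPM in the native MSC library (1297 UMIs) and 2004 CPM in the PBS library (1786 to 2241, 307 UMIs). The order of the 3 libraries was thus engineered MSC, PBS, native MSC, with intervals that do not touch in these barcodes, but no ratio had its whole interval beyond 1.5-fold. It was 1.24 (1.11 to 1.40) for engineered MSC over PBS and 1.54 (1.45 to 1.64) for engineered over native MSC. In PBS 1 barcode held 42.0% of these Scd1 UMIs. Without the deepest barcode of each library, an alternative chosen after seeing the data, the log2 ratio of engineered MSC to PBS was -0.03 (-0.20 to 0.14), and engineered over native MSC passed 1.5-fold at 1.63 (1.52 to 1.74). The PBS comparison also changed with the choice of barcodes. Engineered MSC over PBS was 2.86 (2.34 to 3.52) with Alb of at least 2% and 3.25 (2.66 to 4.02) with Alb of at least 1% and no Ptprc in any cluster, but its log2 ratio was -0.48 with no mitochondrial limit. Few PBS barcodes have Alb of at least 2%: 10 of the 17 Alb-rich ones of cluster 8 and 2 of the 3 of cluster 16 lie at 1 to 2%. For native MSC over PBS, a ratio of 0.807 (0.712 to 0.917) in Alb-rich barcodes, the log2 value was 0.77 (0.47 to 1.09) with Alb of at least 1% and no Ptprc and 0.22 with Alb of at least 2%, so the order of native MSC and PBS turns round with that choice.

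Scd1 was detected in 89.5% of Alb-rich barcodes of engineered MSC, 82.3% of native MSC and 85.0% of PBS. Thinned to 2000 UMIs, which left 179, 67 and 12 barcodes, the shares were 93.9%, 71.6% and 91.7%. T cell-like barcodes, in which Scd1 is not a known marker, gave 54.0%, 7.19% and 5.33% at the same depth (unthinned 78.4%, 15.01% and 8.73%, median depth 4000, 4672 and 3198 UMIs). The share in hepatocyte-like barcodes was thus above that of T cell-like barcodes in all 3 libraries, and by the least in engineered MSC.

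Among the enzymes before Scd1 in the route, Acly (ATP-citrate lyase) had 208 CPM in engineered MSC (187 to 231), 128 in native MSC (105 to 156) and 78.3 in PBS (40.5 to 137, 12 UMIs). The ratio of engineered MSC to PBS was 2.65, and its interval of 1.499 to 5.18 ends at the 1.5-fold limit. Without the deepest barcodes that ratio was 3.44 (1.65 to 8.62), beyond the limit. Fasn, fatty acid synthase, had 116 CPM in engineered MSC, 138 in native MSC and 71.8 in PBS, where it rested on 11 UMIs, and all 3 intervals overlap. Acaca (acetyl-CoA carboxylase) had 64.5, 44.9 and 58.8 CPM and Elovl6 (fatty acid elongase) 59.1, 54.9 and 58.8 CPM, in the same order. Neither of these enzymes separated the libraries.

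Of the regulators, Srebf1 had 40.6 CPM in engineered MSC (68 UMIs), 52.4 in native MSC (42 UMIs) and 6.53 in PBS, where a single UMI was seen (interval 0.165 to 36.4). The ratios to PBS were 6.22 (1.08 to 249) and 8.02 (1.36 to 324), too wide to place beyond 1.5-fold. Insig1 had 216 CPM in engineered MSC (194 to 240), 414 in native MSC (371 to 461) and 346 in PBS (259 to 453). It was lower in engineered than in native MSC at a ratio of 0.522 (0.449 to 0.608). Its ratio of engineered MSC to PBS was 0.625 (0.467 to 0.850), with 50.9% of the PBS UMIs in 1 barcode. Without the deepest barcodes this ratio was 0.431 (0.321 to 0.590), beyond the limit, but with Alb of at least 2% its log2 value was 0.85, the other direction. Sqle, at the start of the sterol branch, had 40.6 CPM in engineered MSC (31.5 to 51.5), 81.0 in native MSC (62.5 to 103) and 26.1 in PBS (4 UMIs). The native MSC library thus had the highest value of the 3 for Srebf1, Sqle and Insig1, though the intervals of native MSC and PBS overlap for Insig1 and Sqle, and those of the MSC libraries for Srebf1.

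Counted over the 8 members, 0 lay beyond 1.5-fold in engineered MSC over PBS, against 12.2% of all genes compared. In native MSC over PBS it was 0 of 8, against 14% of genes. In engineered over native MSC 0 were higher and 1 lower (Insig1), against 3.4% of genes lower and 9.58% higher. The median log2 ratio of the members was 0.47 for engineered MSC over PBS (all genes -0.06), 0.49 for native MSC over PBS (all genes -0.30) and -0.07 for engineered over native MSC (all genes 0.44). The 2 comparisons with PBS share its 20 barcodes, and these few barcodes limit what either can show. The Insig1 difference between the MSC libraries was not seen among barcodes with at least 1% mitochondrial UMIs, where its log2 ratio of engineered to native MSC was 0.013 (-0.51 to 0.56). Most of the 79 native MSC barcodes are left out there, since their median mitochondrial share was 0.0949%, against 1.09% in engineered MSC.

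**Figure D1:**
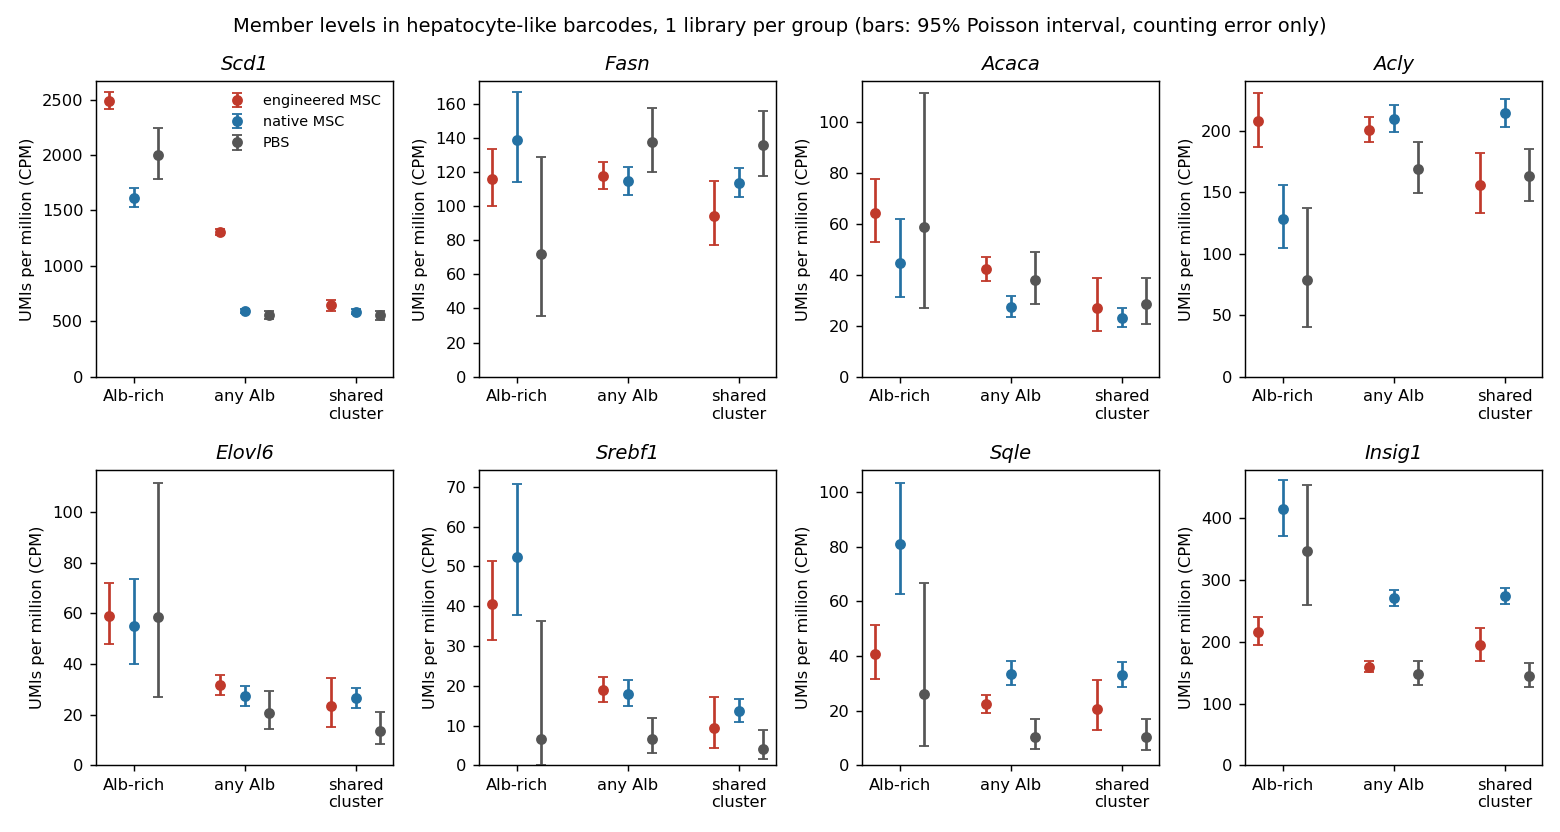
Levels of the 8 members in CPM (vertical axes from 0) in Alb-rich hepatocyte-like barcodes, in hepatocyte-like barcodes of any Alb share and in the shared cluster. Points are the engineered MSC, native MSC and PBS libraries, 1 per group, and bars are 95% Poisson intervals; Scd1 at any Alb share is 1306, 589 and 559 CPM, whereas in the shared cluster it is 645, 588 and 553 CPM.

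With no limit on Alb (median depth 1612 UMIs in engineered MSC, 5435 in native MSC and 1811.5 in PBS), Scd1 set the engineered MSC library apart, at 1306 CPM against 589 in native MSC and 559 in PBS. The ratios were 2.34 (2.18 to 2.51) over PBS and 2.22 (2.14 to 2.30) over native MSC. Srebf1 was also beyond 1.5-fold, at 18.8 CPM in engineered MSC and 6.53 CPM in PBS (2.89, 1.52 to 6.15), where it rested on 10 UMIs. These 2 members of 8 were higher in engineered MSC than in PBS and 0 lower, against 7.18% and 7.69% of genes. Native MSC had 17.9 CPM of Srebf1 (2.75 over PBS, 1.44 to 5.88), with an interval that crosses the limit, and lay close to the engineered MSC level.

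In the same barcodes Sqle stood at 22.3 CPM in engineered MSC, 33.5 in native MSC and 10.4 in PBS (16 UMIs), and Insig1 at 160 CPM, 270 CPM and 148 CPM. These 2 members were the ones higher in native MSC than in PBS, at 3.21 (1.93 to 5.71) for Sqle and 1.82 (1.59 to 2.10) for Insig1, against 4.37% of genes higher, and 0 were lower, against 7.97%. Engineered over native MSC gave 1 member higher (Scd1) and 1 lower (Insig1, 0.592, 0.550 to 0.637), against 12.7% and 4.26% of genes. Fasn (118, 115 and 138 CPM), Acly (201, 210 and 169 CPM), Acaca (42.3, 27.4 and 37.9 CPM) and Elovl6 (31.6, 27.2 and 20.9 CPM) had no whole interval beyond 1.5-fold in any comparison.

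In the shared cluster, the part of the data in which every library has at least 50 barcodes, the Scd1 difference was small. It had 645 CPM in engineered MSC, 588 in native MSC and 553 in PBS, at ratios of 1.17 (1.05 to 1.29) over PBS and 1.10 (1.01 to 1.19) over native MSC. Sqle had 20.6, 33.1 and 10.2 CPM and Insig1 194, 273 and 145 CPM. For both, native MSC over PBS stayed beyond 1.5-fold, at 3.24 (1.92 to 5.89) and 1.88 (1.63 to 2.18). They were 2 of 8 members higher in that comparison, against 4.41% of genes. Other markers also differed there: erythroid markers summed to 99.97, 8482 and 26.6 CPM, neutrophil markers to 33.6, 768 and 44.3 CPM, macrophage markers to 183, 196 and 806 CPM and cycling markers to 1017, 511 and 120 CPM, and their part in these ratios was not tested. Of the 7 members compared between engineered MSC and PBS 0 lay beyond the limit, against 8.9% of genes, and 0 of 8 between engineered and native MSC, against 3.3%.

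In engineered MSC, Scd1 varied with the Alb share and between clusters. Within this library Scd1 stood at 792 CPM where Alb was under 0.5% of UMIs, 1241 CPM at 0.5 to 1%, 2027 CPM at 1 to 2% and 3561 CPM at 2% or more. In native MSC the same bins gave 389, 1338, 1909 and 1453 CPM. In PBS the first 2 bins gave 400 and 358 CPM, the second from 27 barcodes. Srebf1 and Sqle were also highest in the top bin of engineered MSC (61.5 and 77.3 CPM, against 10.1 and 17.4 CPM in the lowest bin), whereas Acly (220 and 195 CPM) and Fasn (127 and 123 CPM) hardly differed between the top and lowest bins. Among Alb-rich barcodes of engineered MSC, Scd1 was 2062 CPM in cluster 6, 2458 in cluster 8 and 3411 in cluster 16. Insig1 was 152, 314 and 343 CPM in these clusters and Srebf1 22.6, 17.4 and 81.8 CPM.

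Barcodes were also split by zone of the liver lobule, into those with more UMIs of pericentral than of periportal genes and the reverse. In Alb-rich barcodes of engineered MSC, 459 were pericentral and 417 periportal. Elovl6 was higher in the pericentral ones, at 87.3 CPM (68.1 to 110) against 34.5 (22.3 to 50.9). Acly was lower there, at 168 CPM (141 to 199) against 258 (222 to 298). Scd1 had 2672 CPM in pericentral and 2219 CPM in periportal barcodes. In native MSC 74 of the 79 Alb-rich barcodes were pericentral, against 459 of 1032 in engineered MSC. The part of this zonal difference in the ratios of engineered to native MSC in Alb-rich barcodes, that of Insig1 among them, was not tested. With no limit on Alb, Fasn in engineered MSC had 137 CPM in pericentral and 82.1 CPM in periportal barcodes, intervals apart, but 125 and 143 CPM in PBS. In native MSC Insig1 had 295 CPM in pericentral and 163 CPM in periportal barcodes, Scd1 638 and 383 CPM, and Sqle 37.0 and 18.4 CPM, each with intervals that do not touch. Acly in native MSC was level, at 209 and 210 CPM, and for Scd1 in engineered MSC the order was the reverse without the limit on Alb (1250.5 CPM pericentral and 1327 CPM periportal).

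Other genes of the routes were taken as lists. In hepatocyte-like barcodes of any Alb share, 7 of 17 lipogenesis genes compared were higher in engineered MSC than in PBS and 0 lower, against 7.18% and 7.69% of all genes. They were Elovl3, which elongates long saturated and monounsaturated chains, Thrsp (Spot 14, a promoter of lipogenesis), Me1 (malic enzyme, a source of NADPH), Fads1 and Fads2 (desaturases of polyunsaturated chains), Elovl5 and Acacb. Elovl3 had 400 CPM in engineered MSC, 9.27 in native MSC and 1.31 in PBS, where it rested on 2 UMIs (ratio to PBS 307, 84.8 to 2534). Thrsp had 1121 CPM in engineered MSC, 891 in native MSC and 350 in PBS. The list's median log2 ratio of engineered MSC to PBS was 0.86, with -0.05 over all genes. In Alb-rich barcodes 3 of 16 were higher (Elovl3, Thrsp and Acss2, the cytosolic acetyl-CoA synthetase), against 4.8% of genes. In the shared cluster 3 of 14 were higher (Elovl3, Fads2 and Acss2) and 1 lower (Mid1ip1), against 4.61% and 4.29% of genes. Elovl3 in the shared cluster had 29.9 CPM in engineered MSC, 9.29 in native MSC and 1.36 in PBS.

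Of 19 cholesterol synthesis genes, 8 were higher in native MSC than in PBS at any Alb share and 0 lower, against 4.37% and 7.97% of all genes, with a median log2 ratio of 0.93 and -0.30 over all genes. They included Sc5d (203 CPM in native MSC and 64.6 CPM in PBS, 3.14-fold), Ebp (292 and 102 CPM, 2.87-fold), Nsdhl, Msmo1, Pmvk, Acat2 and Fdps (1161 and 649 CPM, 1.79-fold). Sc5d, Ebp, Nsdhl and Msmo1 act late in the sterol branch, after Sqle, and Acat2, Pmvk and Fdps before it. In the shared cluster the count was again 8 of 19, against 4.41% of genes, with 0 lower. In engineered MSC over PBS 3 of 19 were higher at any Alb share, among them Cyp51 (2.56-fold) and Sc5d (2.39-fold), against 7.18% of genes and with a median of 0.62, and 4 of 17 in the shared cluster, against 4.61%. In Alb-rich barcodes 2 of 19 (Idi1 among them) were higher in engineered MSC than in PBS, against 4.8% of genes, and 4 of 18 (Fdps, Fdft1 and Sc5d among them) in native MSC than in PBS, against 4.26%. Engineered over native MSC gave 5 of 19 lower in Alb-rich barcodes (Msmo1 0.337, Nsdhl 0.355, Ebp 0.406, Sc5d 0.466 and Fdps 0.489), against 3.4% of genes, 3 lower at any Alb share, against 4.26%, and 0 in the shared cluster, against 1.26%. The 2 comparisons with PBS share its barcodes.

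In the control and transport lists single genes lay beyond 1.5-fold. Mlxipl, which encodes the glucose-responsive factor ChREBP, had 49.5 CPM in engineered MSC, 19.6 in native MSC and 15.01 in PBS at any Alb share, 3.30-fold higher in engineered MSC than in PBS (2.16 to 5.27). With Insig2 (178 CPM in engineered MSC and 94.6 in PBS) it made 2 of 9 control genes higher, against 7.18% of genes, and 0 of 8 were beyond the limit in native MSC over PBS, against 12.3%. Abca1, the exporter of cholesterol from cells, was lower in native MSC than in PBS, at 22.9 and 58.7 CPM (0.389, 0.298 to 0.511), as was Mylip, a ubiquitin ligase (2.09 and 9.14 CPM). These were 2 of 7 transport genes, against 7.97% of genes lower, and in the shared cluster 3 of 5 were lower in native MSC than in PBS, against 7.32%. In engineered over native MSC 5 of 8 transport genes were higher at any Alb share (Mylip, Abca1 and Abcg1 among them), against 12.7% of genes. Macrophages also express Abca1. Macrophage markers in hepatocyte-like barcodes of any Alb share summed to 417 CPM in engineered MSC, 215 in native MSC and 792 in PBS, and their part in these ratios was not tested.

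**Figure D2:**
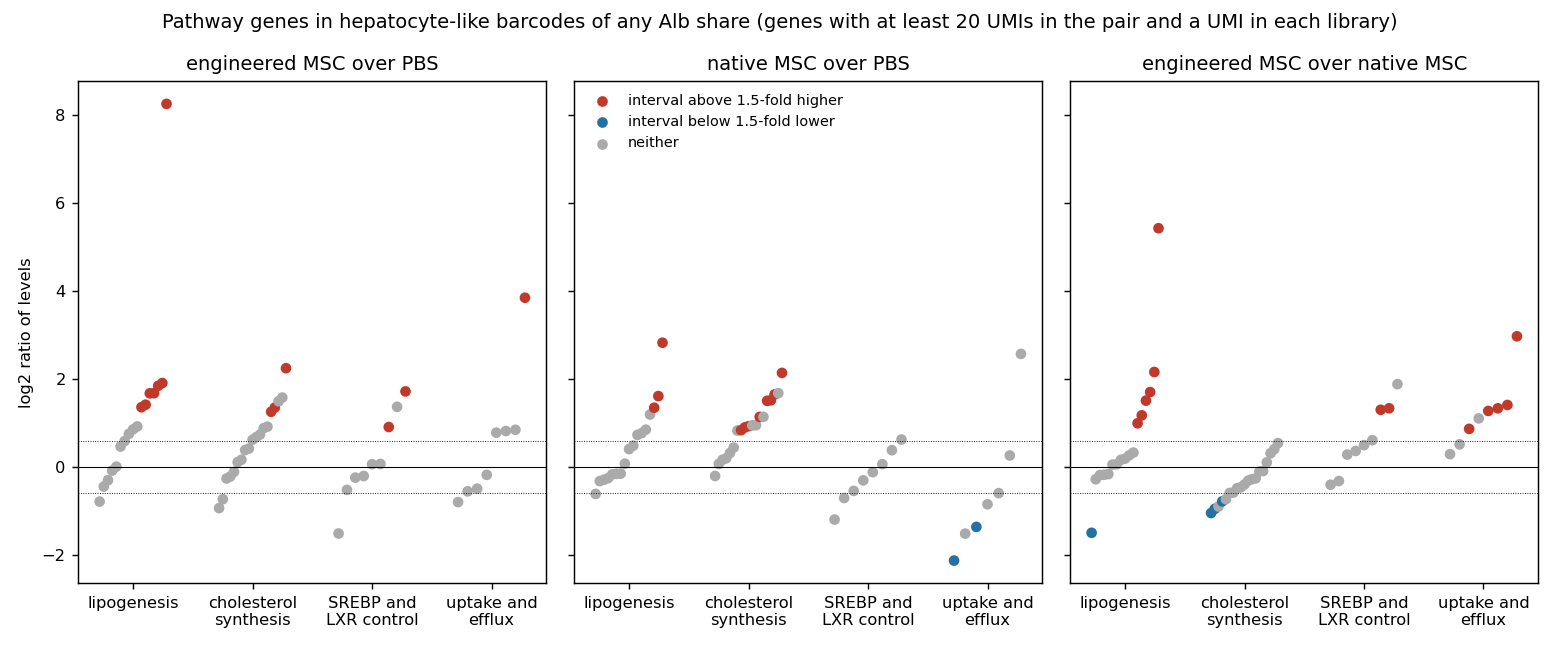
Log2 ratios (vertical axis) of single pathway genes in hepatocyte-like barcodes of any Alb share, sorted within each of 4 lists, for engineered MSC over PBS, native MSC over PBS and engineered over native MSC. Red and blue points have a whole 95% interval above or below 1.5-fold (dotted lines): 7 of 17 lipogenesis genes are red in the first panel and 8 of 19 cholesterol synthesis genes in the second.

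Over all kept barcodes, the hepatocyte-like ones gave 43.5% of Scd1 UMIs in engineered MSC, 64.3% in native MSC and 23.2% in PBS. For Fasn the shares were 54.5%, 54.0% and 17.1%, and for Insig1 40.3%, 57.2% and 11.3%. Srebf1 (13.2%, 10.7% and 0.634%) and Acaca (14.9%, 7.69% and 1.72%) came mostly from other cells. These shares also follow how many UMIs the class holds. Over all kept barcodes Scd1 stood at 448, 88.8 and 51.1 CPM and Srebf1 at 21.4, 16.2 and 21.9 CPM, to set beside the hepatocyte-like levels above. In PBS the macrophage-like barcodes were the leading other source of each of the 8 members, with 16.8% (Sqle) to 37.7% (Acaca) of their UMIs. They also held the most UMIs of any class in PBS (27372366). Their level of each member was below that over all kept PBS barcodes, from Sqle (2.16 and 4.87 CPM) to Acaca (46.5 and 46.8 CPM).

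Macrophage-like barcodes numbered 265 in engineered MSC, 314 in native MSC and 1951 in PBS. Most of those of PBS were in cluster 2 (1921), and most of those of the MSC libraries in cluster 18 (248 and 286), so different clusters hold the class in different libraries. All 9 macrophage markers were detected in each, and erythroid markers summed to 236, 34188 and 45.3 CPM, so the native MSC levels stand beside much erythroid RNA, whose part was not tested. Scd1 stood at 175 CPM in engineered MSC (160 to 192), 23.8 in native MSC and 24.3 in PBS. It was thus 7.21-fold (6.39 to 8.13) and 7.36-fold (5.91 to 9.24) higher in engineered MSC than in PBS and in native MSC, and level between native MSC and PBS. Within cluster 18 the levels were 183, 22.5 and 51.4 CPM, the last from 12 UMIs in 30 PBS barcodes (26.5 to 89.7). None of the other 7 members had its whole interval beyond 1.5-fold in either comparison with PBS. Fasn had 12.5, 12.3 and 12.9 CPM, Acaca 38.3, 30.3 and 46.5, Acly 66.8, 55.4 and 45.2, Srebf1 24.7, 17.8 and 21.5, Sqle 5.69, 3.13 and 2.16, and Insig1 33.8, 26.0 and 23.5 CPM. Elovl6 (10.6, 2.89 and 6.47 CPM) was higher in engineered than in native MSC, 3.68-fold (1.81 to 7.94), on 12 UMIs of native MSC.

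Thus 1 of 8 members was higher in engineered MSC than in PBS, against 8.33% of genes, and 2 of 8 in engineered than in native MSC, against 3.44%. In native MSC over PBS 0 of 8 lay beyond the limit, against 12.6%. Alb, a hepatocyte transcript, moved with Scd1. It had 1014 CPM in macrophage-like barcodes of engineered MSC, 192 in native MSC and 78.1 in PBS, and all 10 hepatocyte markers together had 2984, 973 and 577 CPM. Per 1000 Alb UMIs, Scd1 had 173 UMIs in macrophage-like and 164 in hepatocyte-like barcodes of engineered MSC. If the Alb UMIs of the class are taken as free RNA with the Scd1-to-Alb ratio of the library's hepatocyte-like barcodes, 438 of its 462 Scd1 UMIs (94.8%) would be expected with them. With these taken off, the log2 ratio of engineered MSC to PBS was -0.38, with an interval of -1.04 to 0.22 that includes no difference. Here and below this step uses hepatocyte-like barcodes of any Alb share (9847 Scd1 and 60023 Alb UMIs in engineered MSC, 856 and 5356 in PBS). Alb-rich barcodes had less Scd1 per Alb UMI (4168 and 32640 UMIs in engineered MSC, 307 and 3046 in PBS). With their ratio fewer Scd1 UMIs would come off, and the outcome with it was not computed.

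The same pattern ran through most other classes, though the leading cluster of T cell-like, monocyte-like, neutrophil-like, B cell-like and endothelium-like barcodes differed between engineered MSC and PBS. Scd1 was higher in engineered MSC than in PBS in all 9 other named classes compared between them, beyond 1.5-fold in each, for example 13.5-fold (9.71 to 19.3) in T cell-like, 13.3-fold in monocyte-like, 12.6-fold in neutrophil-like and 7.39-fold in endothelium-like barcodes. In neutrophil-like barcodes Scd1 stood at 601 CPM in engineered MSC, 45.8 in native MSC and 47.9 in PBS, with Alb at 3473, 598 and 239 CPM. Over 13 non-hepatocyte classes of engineered MSC the Scd1 UMIs per 1000 Alb UMIs ranged only between 161 and 290. Without B cell-like and Kupffer cell-like barcodes the range was 161 to 205, around the 164 of hepatocyte-like barcodes. In native MSC the range over 13 classes was 66.1 to 633, against 128 in hepatocyte-like barcodes, and the same without B cell-like barcodes. In PBS it was 159 to 2115 over 12 classes, against 160 in hepatocyte-like barcodes, and 159 to 568 without B cell-like and Kupffer cell-like ones. In the plot of Scd1 against Alb the engineered MSC classes lie along a line.

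**Figure D3:**
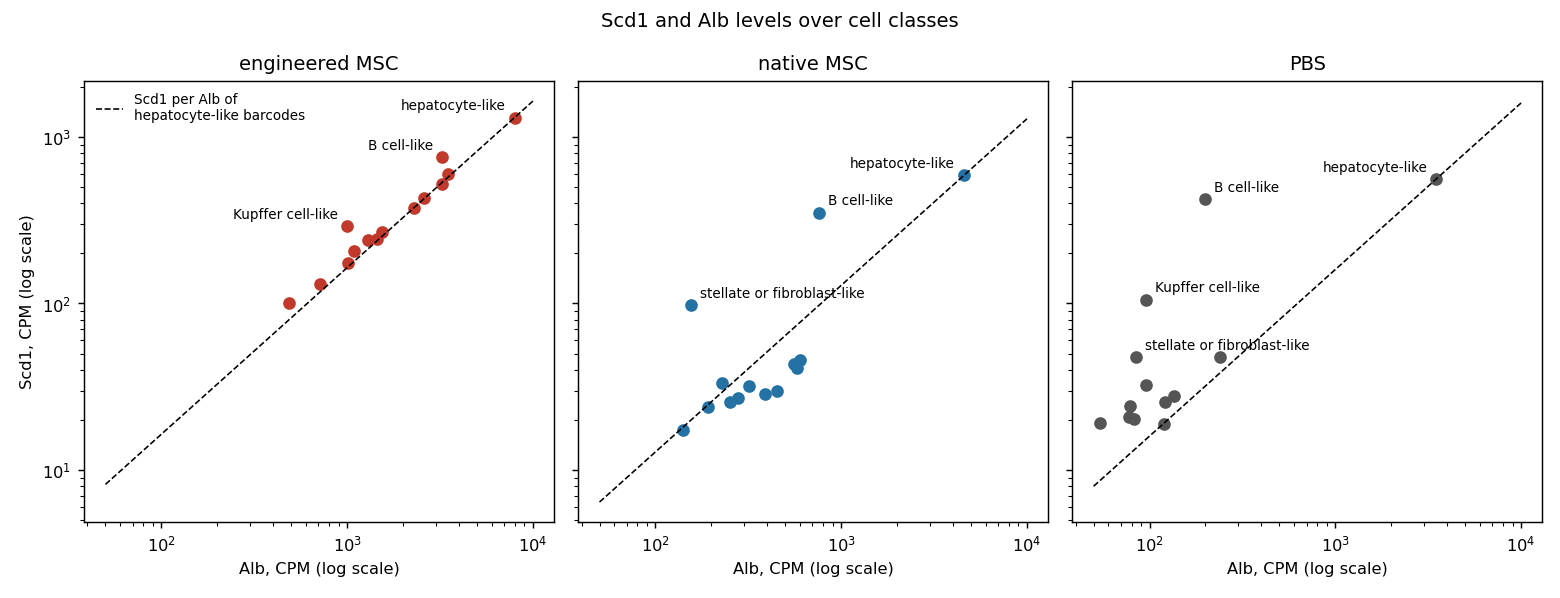
Scd1 level against Alb level (both axes CPM, log scales), each point a class of at least 50 barcodes, with 1 panel each for the engineered MSC, native MSC and PBS libraries. The dashed line is the Scd1-to-Alb ratio of the library's hepatocyte-like barcodes; in engineered MSC 11 of 13 non-hepatocyte classes lie between 161 and 205 Scd1 UMIs per 1000 Alb UMIs, whereas B cell-like barcodes lie above the line in all 3 panels.

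B cell-like barcodes had the highest Scd1 level of the non-hepatocyte classes of at least 50 barcodes in each library. They numbered 1606 in engineered MSC, 347 in native MSC and 597 in PBS, and Scd1 stood at 758 CPM (734 to 783), 351 CPM (314 to 391) and 423 CPM (390 to 458). Different clusters hold the class: cluster 4 holds 1593 of the engineered MSC barcodes, and cluster 11 holds 345 of native MSC and 596 of PBS. Over all other non-hepatocyte barcodes of the same library that was 3.17-fold, 11.6-fold and 13.2-fold higher, beyond 1.5-fold in 3 of 3 libraries, against 13.9%, 14.3% and 14.5% of genes. Of these barcodes 88.3%, 55.9% and 59.5% held a Scd1 UMI, and 76.1%, 45.5% and 58.0% once thinned to 2000 UMIs. Per 1000 Alb UMIs they had 233, 461 and 2115 Scd1 UMIs, all above the hepatocyte-like ratio. Less the UMIs expected with Alb (70.4%, 27.9% and 7.56%), 224, 253 and 391 CPM remained. Scd1 was 1.79-fold (1.64 to 1.96) higher in engineered MSC than in PBS as counted, but with those UMIs taken off the log2 ratio was -0.80 over PBS (-0.95 to -0.65) and -0.17 over native MSC (-0.38 to 0.04).

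Kupffer cells, the resident macrophages of the liver, had 290 CPM of Scd1 in 402 Kupffer cell-like barcodes of engineered MSC, 162 CPM in 31 of native MSC and 105.5 CPM in 678 of PBS. Against the other non-hepatocyte barcodes of its library this was 0.974-fold, 4.69-fold and 3.04-fold. Stellate cell or fibroblast-like barcodes had 131, 98.3 and 47.8 CPM, 2.74-fold higher in engineered MSC than in PBS as counted, and at a log2 ratio of -1.31 (-2.21 to -0.49) once the UMIs expected with Alb were taken off.

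Sqle, Insig1 and Elovl6 stood high in plasmacytoid dendritic cell-like barcodes, of which there were 101 in engineered MSC, 57 in native MSC and 141 in PBS. These cells are known for making type I interferon. Sqle stood there at 94.01, 37.4 and 67.6 CPM, 8.23-fold, 8.92-fold and 16.6-fold above the other non-hepatocyte barcodes of the library. Insig1 stood at 106, 104 and 86.6 CPM, 2.62-fold, 4.89-fold and 3.52-fold above them. Elovl6 stood at 122, 112 and 122 CPM, 5.86-fold, 13.2-fold and 13.7-fold above them. These 3 members were beyond 1.5-fold in 3 of 3 libraries, against 7.47%, 9.23% and 10.4% of genes higher in this class. None of the 3 differed between libraries beyond 1.5-fold in this class, but Acaca did, at 130 CPM in engineered and 43.2 CPM in native MSC (3.01-fold, 1.73 to 5.60), with 86.6 CPM in PBS. Sqle in dendritic cell-like barcodes had 25.3, 22.1 and 16.1 CPM, 5.46-fold (native MSC) and 3.83-fold (PBS) above the other barcodes of their library, against 4.64% and 6.63% of genes higher.

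T cell-like barcodes were higher than the other non-hepatocyte barcodes for Fasn and Elovl6 in 3 of 3 libraries, against 12%, 16.3% and 14.9% of genes higher in this class. Fasn had 31.2 CPM in engineered MSC, 44.3 in native MSC and 40.0 in PBS, 2.02-fold, 4.69-fold and 2.87-fold above the other non-hepatocyte barcodes. Elovl6 had 45.9, 44.8 and 40.8 CPM, 2.37-fold, 5.61-fold and 4.30-fold above them. Neither gene was particular to this class. In NK cell or ILC1-like barcodes Elovl6 reached 119 CPM in engineered MSC and 86.6 CPM in native MSC, close to the plasmacytoid level. Fasn was highest in plasmacytoid dendritic cell-like barcodes in engineered MSC (41.8 CPM) and in NK cell or ILC1-like barcodes in native MSC (61.0 CPM). Only in PBS were T cell-like barcodes the highest non-hepatocyte class for Fasn.

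At the low end, Elovl6 in neutrophil-like barcodes had 2.97 CPM (2 UMIs) in engineered MSC, 1.51 in native MSC and 0 UMIs in PBS, where 3 counts, taken throughout as the limit that 0 allows, would be 2.24 CPM. Neutrophil-like barcodes were lower than the rest in 3 of 3 libraries for Elovl6, against 24.5%, 41.8% and 30.2% of genes. Macrophage-like barcodes were also lower for Elovl6 in 3 of 3 (0.458, 0.303 and 0.524 of the rest), against 19.9%, 13.2% and 29.5%. Sqle was lower in endothelium-like barcodes in 3 of 3, at 4.65 CPM in engineered MSC, 0 UMIs in native MSC (3 counts would be 2.12 CPM) and 1.92 CPM in PBS, against 28.4%, 10.8% and 18.8% of genes. Acly varied less: outside hepatocyte-like, erythroid cell-like and neutrophil-like barcodes it lay between 44.3 and 133 CPM in every class of at least 50 barcodes.

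Between libraries, Insig1 and Sqle were the members besides Scd1 beyond 1.5-fold in more than 1 of these classes. Insig1 had 45.5 CPM in engineered MSC, 21.2 in native MSC and 18.3 in PBS in endothelium-like barcodes, 2.49-fold (2.07 to 3.01) higher in engineered MSC than in PBS. Here too the clusters differ, with 1430 engineered MSC barcodes in cluster 7 and 1126 PBS barcodes in cluster 9, and with the UMIs expected with Alb taken off the log2 ratio was 0.46 (0.13 to 0.80). The ratio to PBS was 3.97 in neutrophil-like (1.77 to 9.49) and 2.30 in B cell-like barcodes (1.5004 to 3.69). Engineered over native MSC gave 2.06 in monocyte-like (1.55 to 2.72) and 2.99 in B cell-like barcodes (1.67 to 5.89), the other direction from the hepatocyte-like ones. Sqle was 6.79-fold (2.61 to 18.9) higher in engineered MSC than in PBS in monocyte-like barcodes, on 13 and 8 UMIs. Over all classes other than hepatocyte-like and macrophage-like, 13 pairs of a class and a member were higher in engineered MSC than in PBS and 0 lower, of 67 pairs compared, against 6.29% and 3.91% of all such pairs of a class and a gene. In native MSC over PBS it was 0 of 65, against 5.99%, and in engineered over native MSC 14 higher and 0 lower of 71, against 4.7% and 2.62%. Alb was higher in engineered MSC in each class of these pairs, and after the UMIs expected with Alb were taken off the 13 became 2 and the 14 became 6. That step can take off too much. Where a class has fewer UMIs of a member per Alb UMI than hepatocyte-like barcodes, more are expected than were seen, and 0 are left. In native MSC, Scd1 per 1000 Alb UMIs was 66.1 in T cell-like and 128 in hepatocyte-like barcodes.

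**Figure D4:**
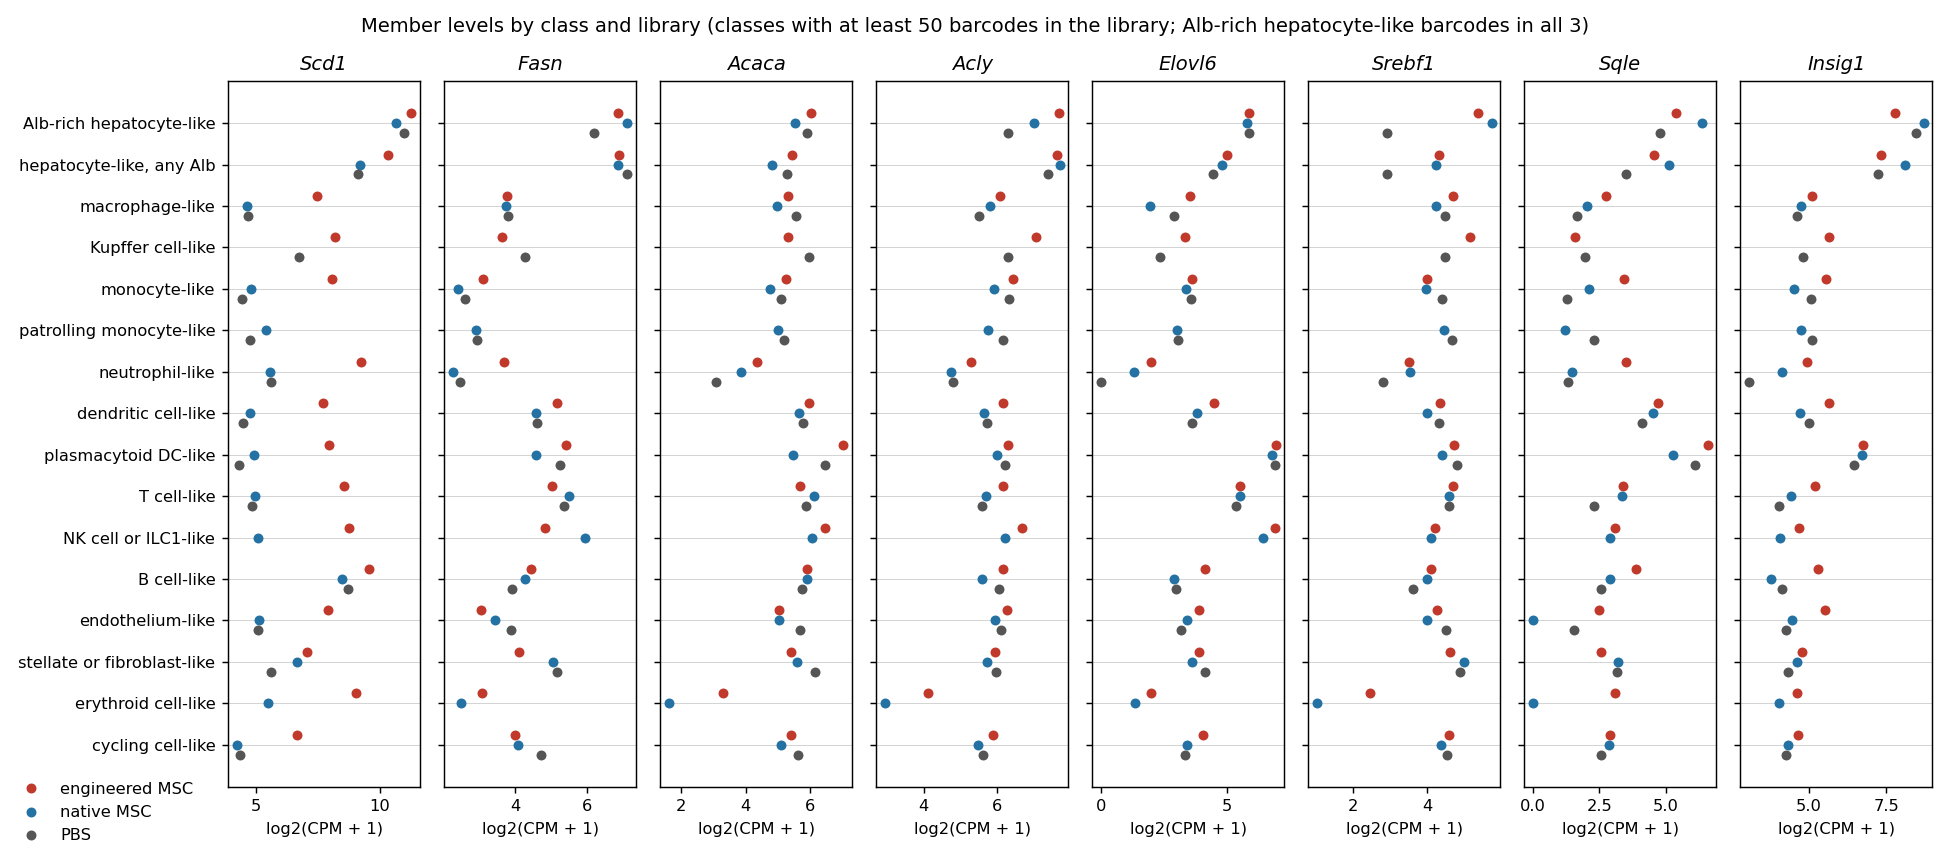
Level of each member, as log2(CPM + 1) on the horizontal axis, by class (rows) for the engineered MSC, native MSC and PBS libraries; horizontal scales differ between members and most do not start at 0. Scd1 of engineered MSC lies to the right in nearly every row, whereas Elovl6 and Insig1 of the 3 libraries lie close together in plasmacytoid dendritic cell-like barcodes.

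Likeness between genes was taken as Pearson's r of log2(CPM + 10) over 40 sums of a class in a library, among 12263 genes. These sums share libraries, depth and free RNA, so r is a description. The genes most like Scd1 were Pigr (0.923), F2 (0.906), Ces1c (0.904), Slc38a4 (0.903) and Fabp1 (0.903). F2 encodes prothrombin and Fabp1 the liver fatty acid-binding protein. The members were less like it, at 0.347 for Fasn and 0.503 for Insig1. The genes most like Sqle were Cyp51 (0.953), Msmo1 (0.924), Fdps (0.923) and Fdft1 (0.919), all enzymes of cholesterol synthesis, and Upb1 (0.915), and among the members Insig1 (0.811).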

How the data were processed

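Per the submitters' processing notes, reads were counted with Cell Ranger 7.1.0 on GRCm39, and the authors deposited UMI counts per gene and barcode, with no normalization. Barcodes with at least 200 genes and at most 20% mitochondrial UMIs were kept (the lowest total was 500 UMIs), and Scrublet doublets at 0.8% per 1000 barcodes were removed (973 in engineered MSC, 1054 in native MSC and 923 in PBS). Using Python 3.11.15, scanpy 1.11.5, leidenalg 0.10.2, igraph 0.11.9, numpy 2.4.6 and scipy 1.17.1, the 3 libraries were joined and clustered by 2000 variable genes other than the members and pathway genes (30 components, 15 neighbours, resolution 1, no batch correction). A cluster was named from marker lists (score of at least 0.5, at least 3 markers up, no contrary marker lead among its top 10 genes). Names were rebuilt here and are "X-like".

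Counts were summed per class and library. Free RNA was left in the main values, and near-identical paralogues are counted as the authors' reference separates them. All 8 members are named, and of each pathway list those beyond 1.5-fold against PBS, at most 6 by the interval bound furthest from 1, with counts for the rest. Pathway genes named beyond that number, and those named for engineered over native MSC, were chosen after their values were seen. Some genes that the rule would name are counted but not reported here by name. Likeness used genes with at least 500 UMIs and sums of at least 50 barcodes. On simulated counts with 200 genes changed 3-fold, intervals held the true ratio for 96.1% to 97.3% of genes. In Alb-rich barcodes 51.3% of these changes were called for engineered MSC over PBS (7675 genes), 54.4% for native MSC over PBS (4796 genes) and 75.0% for engineered over native MSC (8215 genes). The simulated counts were Poisson, the model behind the intervals, so these values check the computation only. Clumping of UMIs in single barcodes, as seen for Scd1 and Insig1 in PBS, was left out of them. Members and gene lists were chosen with earlier results of these data known.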

Additional observations from a re-analysis of the deposited data

Results flagged for a closer look

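Insig1 in engineered over native MSC was picked out because its direction differed between cell classes with the whole interval on opposite sides of 1.5-fold. The ratio was 2.06 in monocyte-like barcodes and 2.99 in B cell-like barcodes, but 0.522 in Alb-rich hepatocyte-like barcodes. The difference between the classes was not tested, since each library is 1 mouse. Alb was also higher in engineered than in native MSC in the first 2 classes, at 5.52-fold and 4.28-fold, in the same order. With the UMIs expected with Alb taken off, the log2 ratio of Insig1 in monocyte-like barcodes was 1.39 (0.61 to 2.10). In B cell-like barcodes none of the 185 Insig1 UMIs of engineered MSC or the 12 of native MSC were left to give a ratio. In both libraries the UMIs expected there exceeded those seen. In native MSC, Insig1 had 16.9 UMIs per 1000 Alb UMIs in B cell-like and 58.9 in hepatocyte-like barcodes.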

How the results depend on the processing

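No paired analysis was possible because each group is 1 library, and for the same reason no replicate could be left out. Counts are of members, or in the other classes together of pairs of a class and a member, beyond 1.5-fold. In Alb-rich barcodes, the 0 higher in engineered MSC over PBS became 1 (Acly) with at least 500 genes per barcode, a 10% or no mitochondrial limit, doublets kept, each cell counted alike, median-ratio scaling, a total without the 20 most abundant genes, or without the deepest barcodes. It became 1 (Scd1, 3.25-fold) with Alb of at least 1% and no Ptprc in any cluster, 4 with Alb of at least 2% (Scd1, Fasn, Acly and Sqle, from few PBS barcodes) and 2 with no cut on Alb. The 0 lower became 1 (Insig1) with no mitochondrial limit and without the deepest barcodes. In native MSC over PBS, the 0 higher became 1 with median-ratio scaling, Alb of at least 2% or no Ptprc, and 2 with no cut on Alb or in the shared cluster; the 0 lower became 1 (Scd1) with at least 1% mitochondrial UMIs. In engineered over native MSC, the 0 higher became 1 with a 10% mitochondrial limit (Acaca) and, each time Scd1, with each cell alike, no cut on Alb, no Ptprc, at least 1% mitochondrial UMIs or without the deepest barcodes, and 2 with Alb of at least 2%. The 1 lower became 2 with a 10% or no mitochondrial limit, each cell alike or Alb of at least 0.5%, and 0 with Alb of at least 2%, at least 1% mitochondrial UMIs or in the shared cluster. With at least 1% mitochondrial UMIs the Insig1 log2 ratio was 0.013 (-0.51 to 0.56), a change of sign with an interval that includes no difference.

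In macrophage-like barcodes the 1 higher in engineered MSC over PBS became 2 at resolution 2 or with each cell alike, and 0, with 1 lower, once free RNA was lowered by Alb; the 0 lower in native MSC over PBS became 2 with each cell alike and 2 with free RNA lowered; the 2 higher in engineered over native MSC became 1 with at least 500 genes, a 10% mitochondrial limit or a minimum of 50 UMIs, and 1 was lower with free RNA lowered. In the other classes, lowering free RNA turned the 13 higher in engineered MSC over PBS into 2, with 9 lower, gave 1 higher and 9 lower in native MSC over PBS, and turned the 14 higher in engineered over native MSC into 6, with 5 lower. Each cell alike gave 2 lower in engineered MSC over PBS and 2 higher in native MSC over PBS, at least 500 genes or a total without the 20 most abundant genes gave 1 higher in native MSC over PBS, and a 10% mitochondrial limit gave 2 lower in engineered over native MSC. Lowering free RNA reversed Scd1 log2 ratios in macrophage-like (-0.38), B cell-like (-0.80 over PBS and -0.17 over native MSC) and stellate cell or fibroblast-like barcodes (-1.31). As stated above, lowering free RNA by Alb can take off more UMIs of a member than were seen. It also rests on the ratio in hepatocyte-like barcodes of any Alb share, which for Scd1 is above that of Alb-rich ones in engineered MSC and PBS. The causes of these changes were not tested. Median-ratio scaling takes off the median log2 ratio of genes with at least 100 UMIs in each library. In Alb-rich barcodes that median was -0.20 (engineered MSC over PBS), -0.14 (native MSC over PBS) and -0.03 (engineered over native MSC), so log2 ratios rose by as much. The other 168 recomputed counts stayed within 1.5 times of those given, and of the single log2 ratios 762 stayed within their intervals. Of all 865, 72 changed sign, 5 of them from a value beyond 1.5-fold (given above). In 16 the whole interval lay on the other side of no change, 12 of them in Alb-rich barcodes: Scd1, Insig1 and Fasn for engineered MSC over PBS, Scd1, Fasn and Elovl6 for native MSC over PBS, and Acly and Elovl6 for engineered over native MSC. The 20 PBS Alb-rich barcodes, with 1 to 12 UMIs for 6 of the members, limit depth most.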
